A study of Rattus norvegicus with 20 samples.

Results

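Casp1 and Cxcl2, a pair of inflammatory genes, were followed through 5 cultured rat epithelia before and after the cells had lived in mouse skin. They are 2 of the 32494 genes listed in the count tables (Casp1, ENSRNOG00000007372, and Cxcl2, ENSRNOG00000002792) and 2 of the 13302 that reached at least 1 CPM (reads on a gene scaled to the size of their library) in at least 1 sample. The pair was chosen from genes that the study listed as different from whisker cells in these same samples, so the differences of both genes are described here with their errors and are not tested. The levels of the 2 genes took separate courses. Casp1 was near or below detection in thymic cells before transplantation and highest in thymic cells recovered from skin, whereas Cxcl2 was highest in bladder cells in both rounds and lowest in whisker cells before transplantation.

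Caspase-1 is the protease of the inflammasome, a complex that sensors such as AIM2 and NLRP3 assemble after damage or infection. It cuts the precursors of interleukin-1 beta and interleukin-18 into their active forms and opens the pore protein gasdermin D, which leads to the inflammatory cell death called pyroptosis. CXCL2 is a secreted chemokine that recruits neutrophils through the receptor CXCR2, and its gene is a classic target of the transcription factor NF-kappaB. Epithelial cells, keratinocytes among them, are a known source of such chemokines.

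RNA was sequenced from whisker follicle, vaginal, tracheal, thymic and bladder (dome) epithelial cells in a 1st round of culture and in a 2nd round, after transplantation into newborn mouse skin and recovery. The 20 samples make 10 groups of 2, and nothing states that the 2 samples of a group came from separate cultures or animals, so the spread and the p values below measure only the difference between these samples. The donors were Sprague-Dawley rats carrying an actin-promoter EGFP transgene, which all groups share, and EGFP-positive cells were sorted after culture on irradiated mouse 3T3-J2 feeder cells. Donor age, in postnatal days, was PN201 for bladder, PN200 for trachea and vagina, PN137 for thymus and PN57 for whisker.

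The whisker cells were clone 7 before transplantation and subclone 14 after it, so each whisker group stands for 1 line. The 1st round thymic samples are labelled both as bulk cells and as clone 9, whereas the recovered thymic cells are labelled as bulk. A difference between rounds in these tissues therefore cannot be told apart from a difference between lines. The samples held 20723083 to 29824855 counts on genes, and the level of 3 counts, taken as the lowest that can be read, lay between 0.0990 and 0.143 CPM. In bulk RNA, fewer cells that express a gene and less RNA per cell cannot be told apart.

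The tissue labels could be checked only on the few markers that the identifiers allow. The epithelial markers Epcam and Cdh1 summed to 999.6 CPM or more in every sample. The fibroblast markers Col1a1, Col3a1, Col6a3 and Dcn (4 of 9 listed) summed to 203 to 265 CPM in 1st round bladder and 281 to 288 CPM in 1st round trachea, against 21.9 to 49.1 CPM in the other 8 groups. Of the leukocyte markers only Cd68 (1 of 11) had an identifier, at 10.04 to 62.6 CPM. Some labels lacked their markers. Aire, which marks medullary thymic epithelium, lay between 0.165 and 0.373 CPM in the thymic samples, and Emx2, Esr1 and Krt4 summed to 674 to 736 CPM in 1st round but 30.2 to 31.5 CPM in recovered vaginal cells. That vaginal sum was highest in recovered thymic cells, at 919 to 978 CPM against 50.6 to 71.0 CPM before, and was 282 to 313 CPM in recovered bladder cells. Nearly all of it was Krt4, at a mean of 939 CPM in recovered thymus. There Esr1 was at 0.941 CPM, and Emx2 was lower after than before, at 8.055 against 16.8 CPM. Krt4 was also at a mean of 380 CPM in 1st round trachea. The bladder marker Upk1b was at 134 to 191 CPM in bladder samples but also at 124 to 164 CPM in 1st round thymus and a mean of 131 CPM in 1st round trachea. The whisker marker Tfap2b was at 32.9 to 51.8 CPM in whisker cells and at 8.14 to 8.42 CPM in recovered vaginal cells.

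Because NF-kappaB is the factor best known for driving CXC chemokine genes, the bases just upstream of Cxcl2, of its family members Cxcl1 and Cxcl6 and of Casp1 are shown. RefSeq sequences (GRCr8 assembly) matched 4 of 5 symbols looked up, Cxcl3 being the one without a match. The 250 bases before the annotated start are chr14:17467256-17467505 (minus strand) for Cxcl2, chr14:17479322-17479571 (minus strand) for Cxcl1, chr14:17596418-17596667 (minus strand) for Cxcl6 and chr8:10872580-10872829 (plus strand) for Casp1. Each is written in the direction of its gene, and capitals mark matches to the kappaB consensus on either strand, overlapping matches being joined.
Cxcl2: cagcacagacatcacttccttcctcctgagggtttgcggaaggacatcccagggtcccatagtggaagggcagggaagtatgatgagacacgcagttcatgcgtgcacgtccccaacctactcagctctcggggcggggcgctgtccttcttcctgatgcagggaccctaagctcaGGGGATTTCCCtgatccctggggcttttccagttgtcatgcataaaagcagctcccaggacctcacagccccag
Cxcl1: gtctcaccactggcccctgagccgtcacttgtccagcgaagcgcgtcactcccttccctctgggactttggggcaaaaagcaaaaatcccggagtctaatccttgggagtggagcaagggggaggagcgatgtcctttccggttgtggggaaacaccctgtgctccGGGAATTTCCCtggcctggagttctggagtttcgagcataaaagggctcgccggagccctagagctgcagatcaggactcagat
Cxcl6: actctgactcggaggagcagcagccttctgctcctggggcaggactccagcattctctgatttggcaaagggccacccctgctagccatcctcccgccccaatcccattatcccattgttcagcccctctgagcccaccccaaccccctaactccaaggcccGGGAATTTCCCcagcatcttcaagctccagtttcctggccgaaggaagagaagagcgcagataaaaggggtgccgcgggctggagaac
Casp1: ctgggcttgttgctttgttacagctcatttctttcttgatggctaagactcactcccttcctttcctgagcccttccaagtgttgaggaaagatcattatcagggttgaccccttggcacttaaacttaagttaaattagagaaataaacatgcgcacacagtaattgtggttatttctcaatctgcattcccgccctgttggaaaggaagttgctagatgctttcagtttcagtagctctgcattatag
A kappaB match stood 74 to 64 bases before the start of Cxcl2, 84 to 74 bases before Cxcl1 and 88 to 78 bases before Cxcl6. The same letters were absent from the Casp1 window. Of 33469 rat promoter windows of this length, 6.33% held a match. A match is a string of letters and not a measured binding site.

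Before transplantation, Casp1 was highest in whisker cells and near 0 in thymic cells. It lay at 18.4 and 15.7 CPM in the 2 whisker samples, at 6.31 and 5.63 CPM in vagina and at 3.62 and 3.23 CPM in bladder. The tracheal samples were at 0.692 and 0.684 CPM, which is 18 and 17 counts. In thymic cells 4 counts were found in one sample (0.159 CPM) and 0 in the other, where 0 counts allow up to the level of 3 counts. None of the 5 tissues overlapped its neighbour in this order. How often the samples of groups stand apart in this way was not counted over all genes. Here and below, a lack of overlap is a description only.

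After recovery from skin the order of Casp1 was changed. Recovered thymic cells had 26.0 and 26.4 CPM and bladder cells 24.8 and 23.8 CPM, both above whisker cells at 12.2 and 11.5 CPM. Vaginal cells had 9.68 and 10.5 CPM, and tracheal cells remained lowest at 0.329 and 0.292 CPM, or 7 and 8 counts. Over all 10 groups no neighbours in the order of Casp1 levels overlapped, and the highest group was 84.5-fold above the lowest of the 9 groups whose mean stood above the 3-count level. The pooled SD within groups was 0.359 on the log2 scale (10 degrees of freedom), a value to which the low thymic and tracheal counts contribute.

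Cxcl2 was low in 1st round whisker cells and higher in all other samples. The whisker samples had 1.87 and 1.26 CPM (45 and 27 counts). Bladder cells had 159 and 103 CPM and tracheal cells 91.8 and 88.3 CPM. Thymic cells had 43.5 and 33.5 CPM and vaginal cells 24.5 and 24.3 CPM, again with no overlap between the tissues.

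After recovery Cxcl2 remained high in bladder cells, at 138 and 139 CPM, and the other 4 tissues lay close together. Thymic cells had 22.2 CPM in both samples, vaginal cells 21.2 and 15.03 CPM, tracheal cells 13.9 and 16.0 CPM and whisker cells 14.3 and 14.2 CPM. Recovered vagina overlapped recovered trachea, recovered trachea overlapped recovered whisker, and the bladder rounds overlapped each other. The other neighbours in the order over 10 groups did not. The highest group was 88.3-fold above the lowest, and the pooled SD within groups was 0.234 (log2, 10 degrees of freedom).

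**Figure D1:**
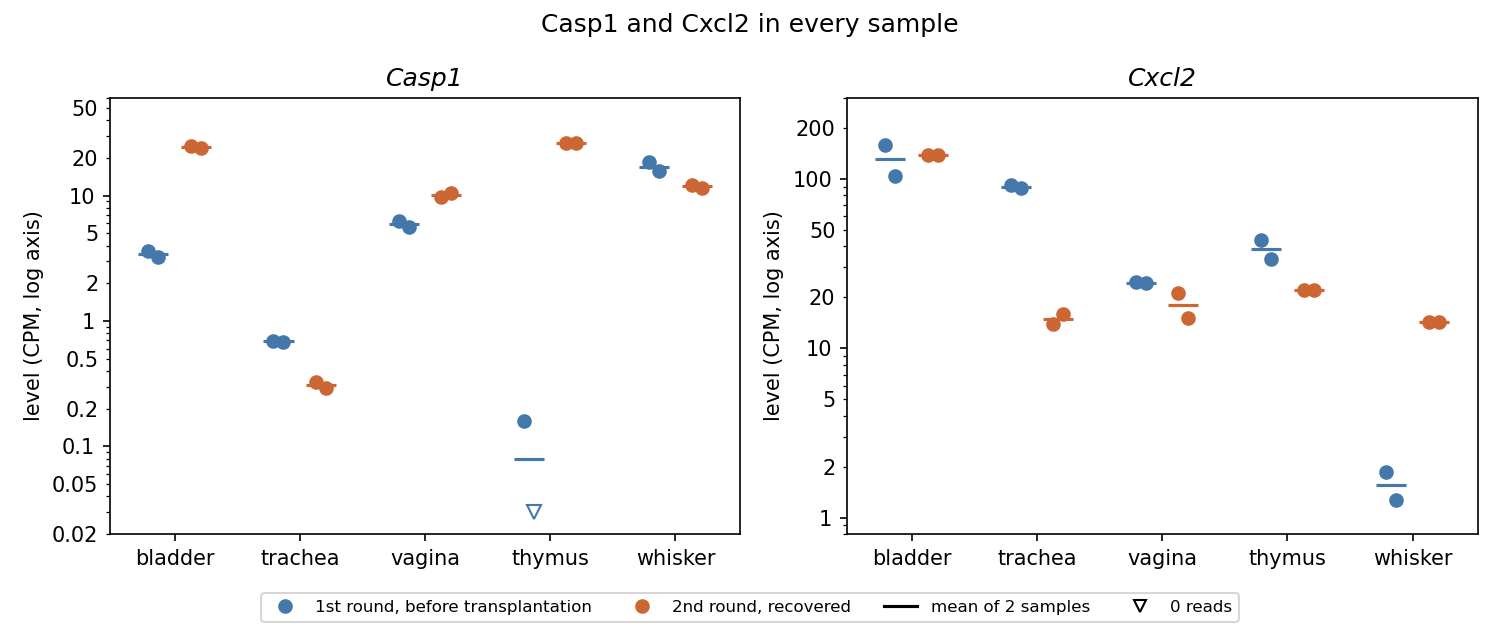
Level of Casp1 (left) and Cxcl2 (right) in every sample, in CPM on a log axis, for the 5 tissues before (blue) and after (orange) transplantation; points are samples, lines the mean of 2 samples, and the open triangle is the thymic sample with 0 Casp1 reads. Casp1 runs from that sample to 26.4 CPM in recovered thymus, and Cxcl2 from 1.26 CPM in 1st round whisker to 159 CPM in 1st round bladder.

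The next comparison set cells recovered from skin against cells before transplantation, tissue by tissue. Recovered cells had also been cultured again, and no untransplanted cells cultured again were among the samples. The part of skin itself in the differences was therefore not tested in any tissue. For scale, the share of all tested genes that limma called higher or lower (adjusted p below 0.05 and at least a 2-fold change) was 10.1% and 11.0% in bladder, 4.39% and 8.04% in trachea, 4.25% and 7.53% in vagina, 8.49% and 6.89% in thymus and 2.15% and 3.83% in whisker.

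Casp1 stood higher after transplantation in bladder, vagina and thymus and lower in trachea and whisker. In bladder the mean was 24.3 ± 0.675 CPM (SD, n = 2) against 3.43 ± 0.275 before, a log2 fold change of 2.81 (SE 0.17). In vagina it was 10.1 ± 0.589 against 5.97 ± 0.482 CPM, a log2 fold change of 0.76 (SE 0.16). In whisker cells it was 11.9 ± 0.432 against 17.04 ± 1.96 CPM, a log2 fold change of -0.52 (SE 0.13). The samples of the 2 rounds did not overlap in any of these tissues.

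In thymus the difference was the widest of the 5, but its size is poorly fixed. The 2 recovered samples held 1413 Casp1 counts and the 2 samples before transplantation held 4, a ratio of 322 after division by the counts on all genes (exact 95% interval 125 to 1182, counting error only). The fitted log2 fold change was 8.74 (SE 0.61) and depends on the prior count added to the 0. Between 7.18 and 10.30 was obtained when a single 1st round thymic sample was left out. In trachea both rounds were low, at 0.688 ± 0.00570 and 0.310 ± 0.0261 CPM, and the log2 fold change of -1.11 had an SE of 0.49.

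Cxcl2 followed another pattern, higher after transplantation in whisker, lower in trachea, thymus and vagina, and not apart in bladder. Whisker cells went from 1.57 ± 0.429 to 14.3 ± 0.0811 CPM (SD, n = 2), a log2 fold change of 3.18 (SE 0.45). Tracheal cells went from 90.01 ± 2.45 to 14.9 ± 1.47 CPM, a log2 fold change of -2.58 (SE 0.19). These were the 2 widest differences of Cxcl2 between rounds, in opposite directions.

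The thymic mean of Cxcl2 was 22.2 ± 0.00712 after and 38.5 ± 7.06 CPM before (log2 fold change -0.78, SE 0.19). The vaginal mean was 18.1 ± 4.36 after and 24.4 ± 0.102 CPM before (log2 fold change -0.46, SE 0.20). In bladder it was 138 ± 0.872 after and 131 ± 39.2 CPM before, with a log2 fold change of 0.11 (SE 0.15), and the recovered samples lay inside the range of the earlier ones. Leaving out the first or the second 1st round bladder sample gave 0.41 or -0.20, so no direction can be given there.

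**Figure D2:**
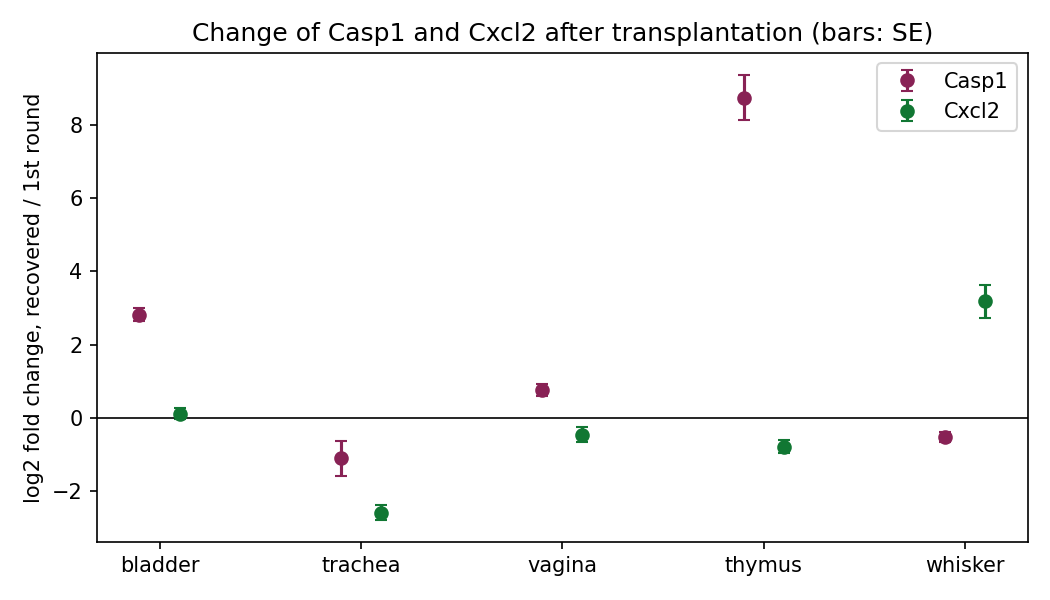
Fitted log2 fold change of Casp1 and Cxcl2 from the 1st round to recovered cells in each tissue (vertical axis); bars are SE from the fit with 2 samples per group. Casp1 is above 0 in bladder, vagina and thymus and below 0 in trachea and whisker, whereas Cxcl2 is above 0 in whisker, near 0 in bladder at 0.11, and below 0 in trachea, vagina and thymus.

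Fibroblast marker levels moved with Cxcl2 in trachea. Their sum went from 281 to 288 CPM before to 39.7 to 47.0 CPM after transplantation, while Cxcl2 went from 90.01 to 14.9 CPM. In bladder the same sum went from 203 to 265 CPM to 28.1 to 31.2 CPM without a matching difference in Cxcl2. In thymus the sum was 21.9 to 22.5 CPM before and 41.8 to 45.6 CPM after, higher without overlap where Casp1 was higher and Cxcl2 lower. In whisker it was 25.3 to 49.1 CPM before and 31.8 to 37.6 CPM after, overlapping between rounds. The part of these cells in the differences was not tested.

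The single leukocyte marker measured also moved between rounds. Cd68 was at 13.4 to 14.7 CPM before and 52.9 to 55.1 CPM after in bladder, where Casp1 was higher after, and at 11.1 to 12.2 CPM before and 55.2 to 61.9 CPM after in trachea, where Casp1 was lower. In vagina Cd68 was at 60.2 to 62.6 CPM before and 14.7 to 16.6 CPM after, against a higher Casp1. It overlapped between rounds in thymus, at 25.8 to 29.7 and 27.8 to 28.2 CPM, and in whisker, at 10.7 to 11.98 and 10.04 to 12.7 CPM. Its part in the differences was not tested.

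A second set of comparisons took whisker follicle cells, the skin cells of the series, as reference within each round. Of all tested genes, 32.0% were called in either direction for 1st round bladder, 28.3% for trachea, 18.6% for vagina and 22.9% for thymus, and 20.1%, 19.0%, 11.9% and 16.7% for the recovered cells of the same tissues. The pair was chosen from such differences, so nothing is read from them against these shares.

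Casp1 was below whisker in all 4 tissues before transplantation, by log2 fold changes of -2.30 (SE 0.18) in bladder, -4.59 (SE 0.31) in trachea, -1.51 (SE 0.15) in vagina and -8.12 (SE 0.62) in thymus. After it, Casp1 was above recovered whisker in bladder (1.03, SE 0.12) and thymus (1.15, SE 0.12), below it in trachea (-5.17, SE 0.40) and slightly below it in vagina (-0.23, SE 0.14). The reference itself had less Casp1 in the 2nd round. Against 1st round whisker cells, recovered bladder stood at 0.51 (SE 0.12), recovered thymus at 0.62 (SE 0.11), recovered vagina at -0.75 (SE 0.13) and recovered trachea at -5.70 (SE 0.39).

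Cxcl2 was above whisker before transplantation, by log2 fold changes of 6.35 (SE 0.43) in bladder, 5.84 (SE 0.43) in trachea, 3.95 (SE 0.44) in vagina and 4.60 (SE 0.44) in thymus. Against recovered whisker cells the differences were 3.28 (SE 0.20) in bladder, 0.07 (SE 0.23) in trachea, 0.31 (SE 0.22) in vagina and 0.64 (SE 0.22) in thymus, and the tracheal and whisker samples overlapped. The reference itself had more Cxcl2 in the 2nd round. Against 1st round whisker cells recovered bladder still stood at 6.46 (SE 0.43), thymus at 3.82 (SE 0.44), vagina at 3.49 (SE 0.44) and trachea at 3.25 (SE 0.45). All these comparisons within a round share their whisker samples.

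The other genes of the inflammasome and chemokine pathways were taken from lists of 128 symbols, of which 33 had an identifier and were tested. Their identifiers came from the study's own lists of genes that differed from whisker cells in these samples, so their calls are not independent evidence. In bladder 9 of the 33 were called higher after transplantation and 13 lower. In trachea 3 were higher and 15 lower, in vagina 4 higher and 6 lower, in thymus 9 higher and 5 lower, and in whisker 7 higher and 3 lower. In the same order, 10.1%, 4.39%, 4.25%, 8.49% and 2.15% of all tested genes were called higher. The shares called lower were 11.0%, 8.04%, 7.53%, 6.89% and 3.83%. Because the identifiers favoured genes that differ between samples, nothing is read from the counts against these shares. The median log2 fold change of the 33 was -0.07 for bladder, -1.46 for tracheal, -0.03 for vaginal, 0.05 for thymic and 0.56 for whisker cells, against medians over all tested genes between -0.0055 and 0.0167.

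Of the inflammasome genes, Aim2, a sensor of cytosolic DNA that activates caspase-1, rose after transplantation in 4 of 5 tissues by the limma test. Its samples had 2.13 and 2.37 CPM before and 14.9 and 17.2 CPM after in bladder (log2 fold change 2.83, SE 0.17, adjusted p = 1.1e-09), and 0.873 and 0.994 before and 21.6 and 21.1 CPM after in thymus (4.49, SE 0.23, adjusted p = 3.1e-10). The samples of the 2 rounds did not overlap in either tissue, and Casp1 was higher after transplantation in both. In whisker Aim2 also rose (3.00, SE 0.16, adjusted p = 3.1e-09), and in trachea it rose by 1.27 (SE 0.19, adjusted p = 5.6e-05), 2 tissues in which Casp1 was lower. In vagina the level of Aim2 was 35.1 CPM before and 24.2 CPM after and was not called (log2 fold change -0.55).

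Casp4 and Casp12, caspases of the same inflammatory subfamily, lie next to Casp1 in the RefSeq gene order. Both had their lowest level in 1st round thymic cells, as Casp1 and Aim2 did. In thymus Casp4 rose from 14.5 and 12.6 to 29.6 and 29.0 CPM (log2 fold change 1.11, SE 0.09, adjusted p = 9e-08 in limma), and Casp12 from 14.4 and 12.8 to 36.4 and 37.2 CPM (1.44, SE 0.10, adjusted p = 1.6e-08). Neither was called between rounds in the other 4 tissues. Across the 10 groups Casp4 varied over 3.42-fold and Casp12 over 4.06-fold, whereas Casp1 varied over 84.5-fold among the groups above its 3-count level. Casp8, an initiator of apoptosis, varied over 2.1-fold and was not called between rounds in any tissue. Outside the inflammatory subfamily, Casp2 was also called higher in thymus, at 95.9 against 46.2 CPM (1.06, SE 0.13, adjusted p = 7.8e-06 in limma), and varied over 3.05-fold. Casp14, which acts in skin cornification, was called higher in bladder (1.97) and trachea (1.83) and varied over 46.1-fold.

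**Figure D3:**
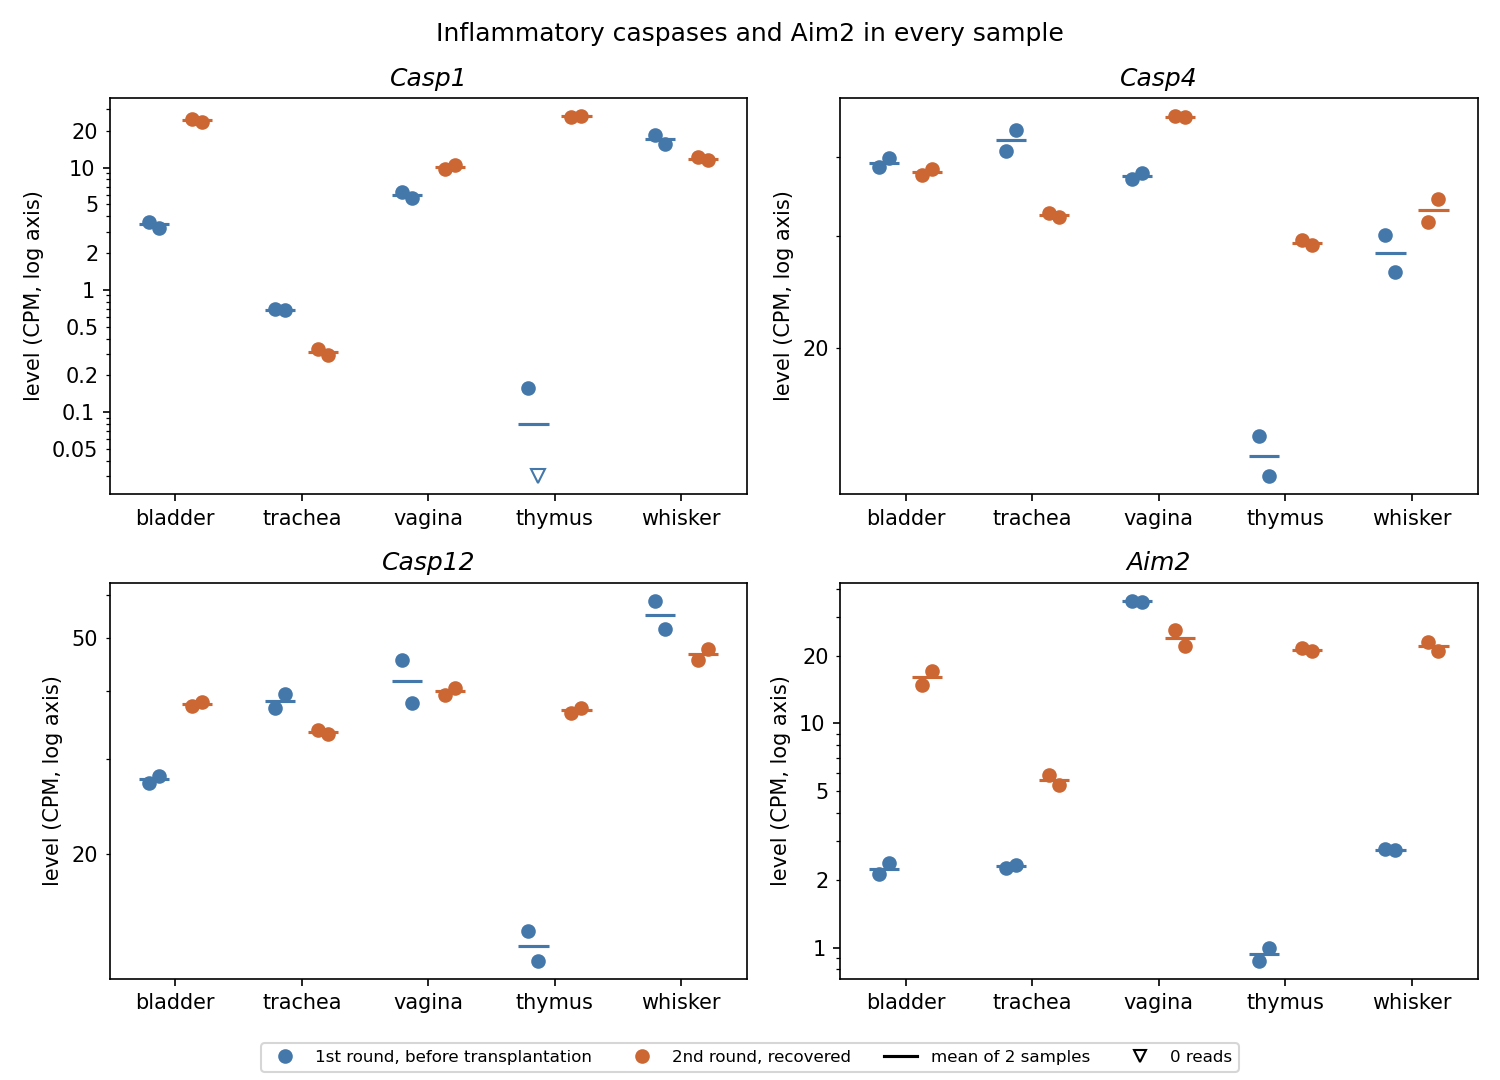
Level of Casp1, Casp4, Casp12 and Aim2 in every sample, in CPM on log axes that differ between panels; points are samples, lines the mean of 2 samples, blue 1st round and orange recovered, and the open triangle is 0 reads. All 4 genes have their lowest group in 1st round thymus; Casp4 and Casp12 span 3.42-fold and 4.06-fold.

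In the interleukin-1 family, which holds substrates and receptors downstream of caspase-1, Il1r2, a decoy receptor that binds interleukin-1 without signalling, rose after transplantation in bladder, vagina and thymus and fell in trachea and whisker, the same signs as the differences of Casp1. Its log2 fold changes were 2.64 in bladder (SE 0.25, adjusted p = 1.5e-07 in limma), 3.00 in vagina (SE 0.34, adjusted p = 3e-06), 3.98 in thymus (SE 0.33, adjusted p = 7.4e-08), -1.69 in trachea (SE 0.52, adjusted p = 0.016) and -1.09 in whisker (SE 0.08, adjusted p = 8e-08). The tracheal level of Il1r2 was low in both rounds, at 0.433 CPM before and 0.120 CPM after. Il36rn, the antagonist of the interleukin-36 receptor, rose in bladder from 0.0776 to 16.2 CPM, in trachea from 0.0201 to 1.95 CPM and in vagina from 4.85 to 29.0 CPM, and was not called in thymus or whisker. In bladder and trachea its level before was below that of 3 counts. Il1rl1, the receptor of interleukin-33, fell in bladder (log2 fold change -3.05) and trachea (-3.29) and rose in whisker (1.75). Il18rap, a receptor chain for interleukin-18, fell in bladder (-2.43) and rose in thymus (1.63). Il1f10 fell in whisker from 14.5 to 3.39 CPM and was called higher in bladder and vagina, from means below the 3-count level. Il1rap, the shared signalling chain, was not called between rounds in any tissue.

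Among the CXC ligands, Cxcl1, Cxcl3 and Cxcl6 act on the same receptor as Cxcl2, and Cxcl1 lies beside Cxcl2 in the RefSeq gene order, with Cxcl3 3 places from Cxcl2. Of these 3, Cxcl1 had the highest likeness to Cxcl2 over the 10 groups (r = 0.871). Cxcl1 fell in trachea from 207 and 190 to 32.8 and 37.5 CPM (log2 fold change -2.49, SE 0.14, adjusted p = 1.3e-09 in limma) and in thymus from 216 and 181 to 36.9 CPM in both samples (-2.42, SE 0.14, adjusted p = 7.3e-10). In whisker Cxcl1 rose from 26.7 and 24.98 to 76.2 and 77.5 CPM (1.57, SE 0.15, adjusted p = 1.3e-06). It was not called in bladder (-0.19) or vagina (0.10).

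Cxcl3 and Cxcl6 differed from Cxcl2 in bladder and thymus. In bladder Cxcl6 fell from 3228 and 1851 to 139 and 146 CPM (log2 fold change -4.10, SE 0.17, adjusted p = 1.2e-11 in limma), and Cxcl3 from 1616 and 1034 to 326 and 340 CPM (-1.96, SE 0.16, adjusted p = 4.3e-08), while the bladder samples of Cxcl2 overlapped between rounds. The fibroblast sum went from a mean of 234 to 29.7 CPM in the same bladder samples, and its part in these falls was not tested. In thymus Cxcl3 rose (2.14, SE 0.17, adjusted p = 3.6e-08), as did Cxcl6 (1.27, SE 0.24, adjusted p = 0.00037), where the mean of Cxcl2 was lower. In trachea and vagina both fell, and in whisker neither was called. Reads that aligned to several places were left out of the counts, so stretches shared by near-identical members of this cluster may be missing from each.

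**Figure D4:**
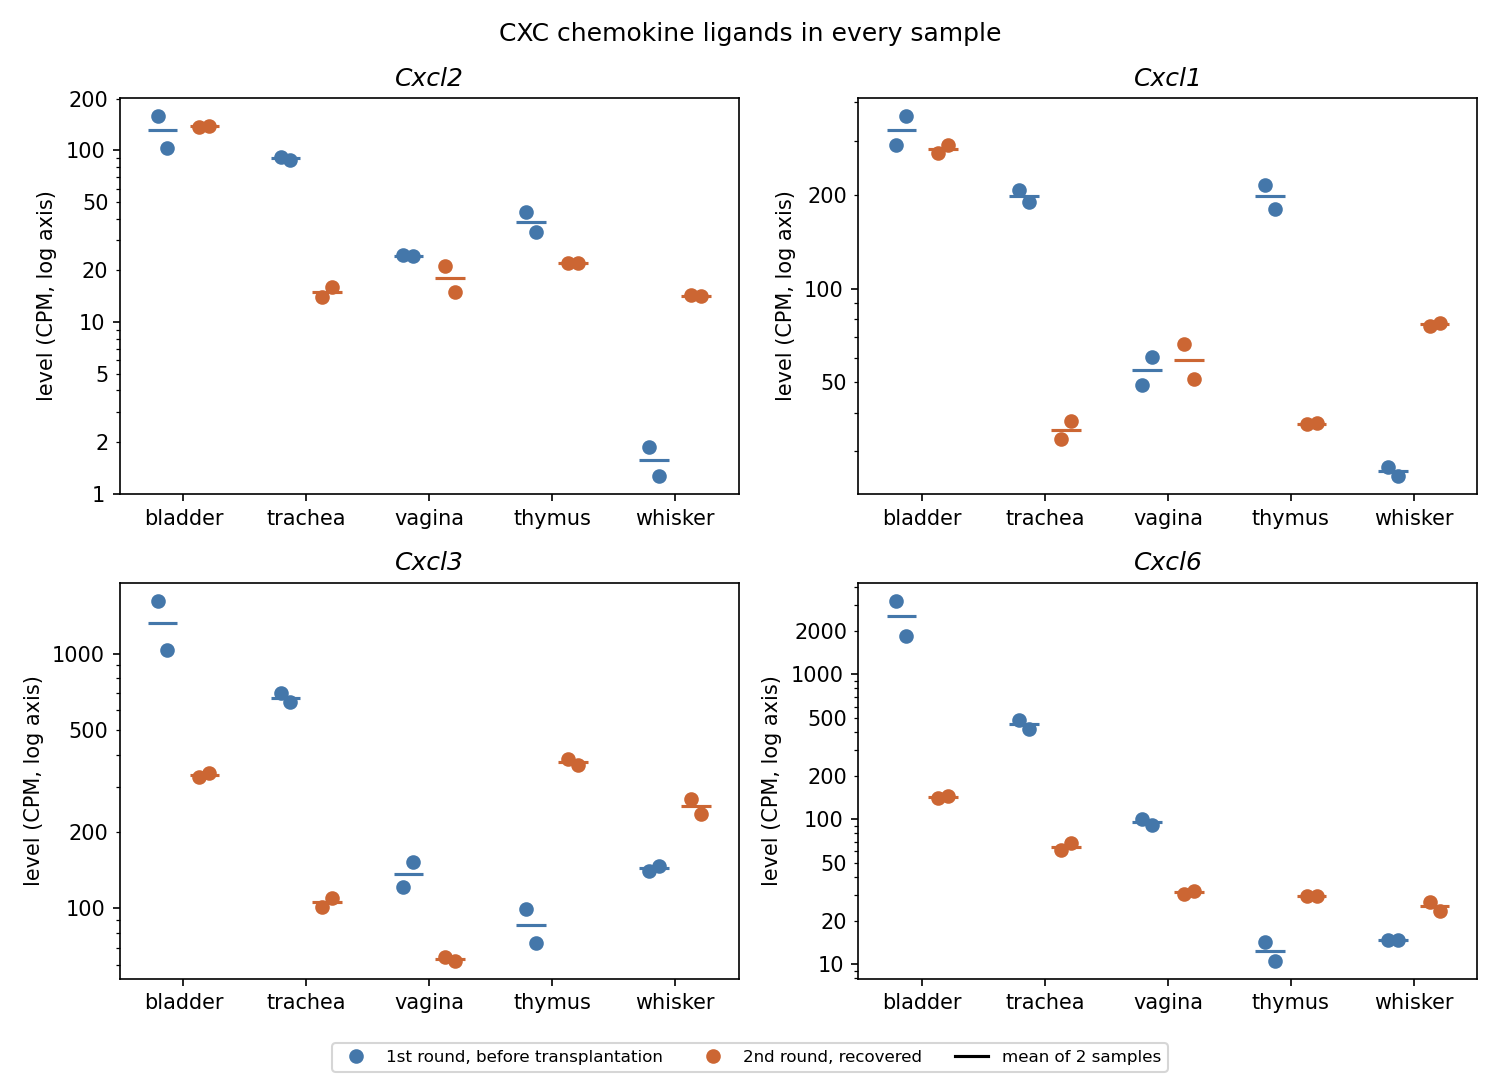
Level of Cxcl2, Cxcl1, Cxcl3 and Cxcl6 in every sample, in CPM on log axes that differ between panels; points are samples, lines the mean of 2 samples, blue 1st round and orange recovered. In bladder the samples of Cxcl2 overlap between rounds while Cxcl3 and Cxcl6 are lower after transplantation, Cxcl6 at a mean of 143 against 2539 CPM.

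The receptor Cxcr2 was at 0.856 to 20.4 CPM in group means. It rose in bladder (log2 fold change 1.15, adjusted p = 4.5e-05 in limma), trachea (1.35, adjusted p = 0.0028) and whisker (1.797, adjusted p = 0.0087) and fell in vagina (-1.06, adjusted p = 0.00083). Cxcl10, a ligand of another receptor and a classic interferon-induced gene, rose in bladder from 53.3 to 315 CPM (2.63, SE 0.21, adjusted p = 2e-08) and fell in trachea (-1.83) and thymus (-1.09). Ackr3, a scavenger receptor of CXCL12, rose in bladder (2.53) and fell in vagina (-1.30). Cxcl12 and Cxcr4 were called lower in bladder, Cxcl11, Cxcl12 and Cxcl17 lower in trachea, and Cxcl14 higher in bladder and lower in thymus and whisker, all from group means of at most 6.52 CPM. Cxcl16 was not called in any tissue.

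Of NF-kappaB regulators only Bcl3 and Tnfaip3 could be tested. Tnfaip3, an NF-kappaB-induced inhibitor of that same pathway, fell in trachea (log2 fold change -2.04, SE 0.12, adjusted p = 2.3e-09 in limma) and thymus (-2.35, SE 0.12, adjusted p = 1.7e-10). Bcl3 rose in whisker (1.62, SE 0.16, adjusted p = 1.5e-06). Of the other mediators, Csf3, a growth factor of neutrophils, rose in whisker (2.47, SE 0.40, adjusted p = 0.00025 in limma) and fell in vagina (-3.18). Csf3 was also called lower in bladder, at a mean of 60.1 CPM after against 207 CPM before. Ccl20, a chemokine for CCR6-bearing cells, fell in bladder (-1.99), trachea (-3.59) and thymus (-3.94). Only 9 of the 32 listed other mediators could be tested, those with an identifier from the study's lists of differences from whisker cells. In bladder 7 of these 9 were called lower, where 11.0% of all tested genes were. Among them were Csf2 (-3.97), Ccl2 (-2.74), Csf1 (-2.05), Ccl7 (-1.87) and Ptgs2, at a mean of 97.6 CPM after against 202.5 CPM before. The 1st round bladder samples differed for Csf2, at 5.26 and 11.9 CPM, and Ptgs2, at 162 and 243 CPM. They were close for Ccl2, at 14.45 and 14.7 CPM. Cebpb rose in bladder (1.15). In trachea, where 8.04% of all tested genes were called lower, 5 of the 9 fell, Ccl20 with Csf2 (-3.29), Ccl2 (-2.32), Ccl7 (-2.26) and Ptgs2 (-1.61). All 7 lower in bladder and all 5 lower in trachea were called above whisker in the same tissue before transplantation. Their entry through the study's lists favoured a later fall in advance. Nothing is therefore read from these counts against the shares. The fibroblast sum went from a mean of 234 to 29.7 CPM in bladder and from 284.5 to 43.4 CPM in trachea. Its part in these falls was not tested. In thymus, Ptgs2, the inducible cyclooxygenase, rose from 11.0 to 47.05 CPM (2.11, SE 0.18, adjusted p = 1.1e-07 in limma), as did Ccl2 (2.66), where Ccl20 fell. Ccl2 had only 9 and 2 counts in the 1st round thymic samples, and Ccl20 only 9 and 7 counts in the recovered ones. Ccl2 also rose in whisker (2.06), from 12 and 8 counts. In vagina Cebpb rose (1.14) and Birc3 fell (-1.31).

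**Figure D5:**
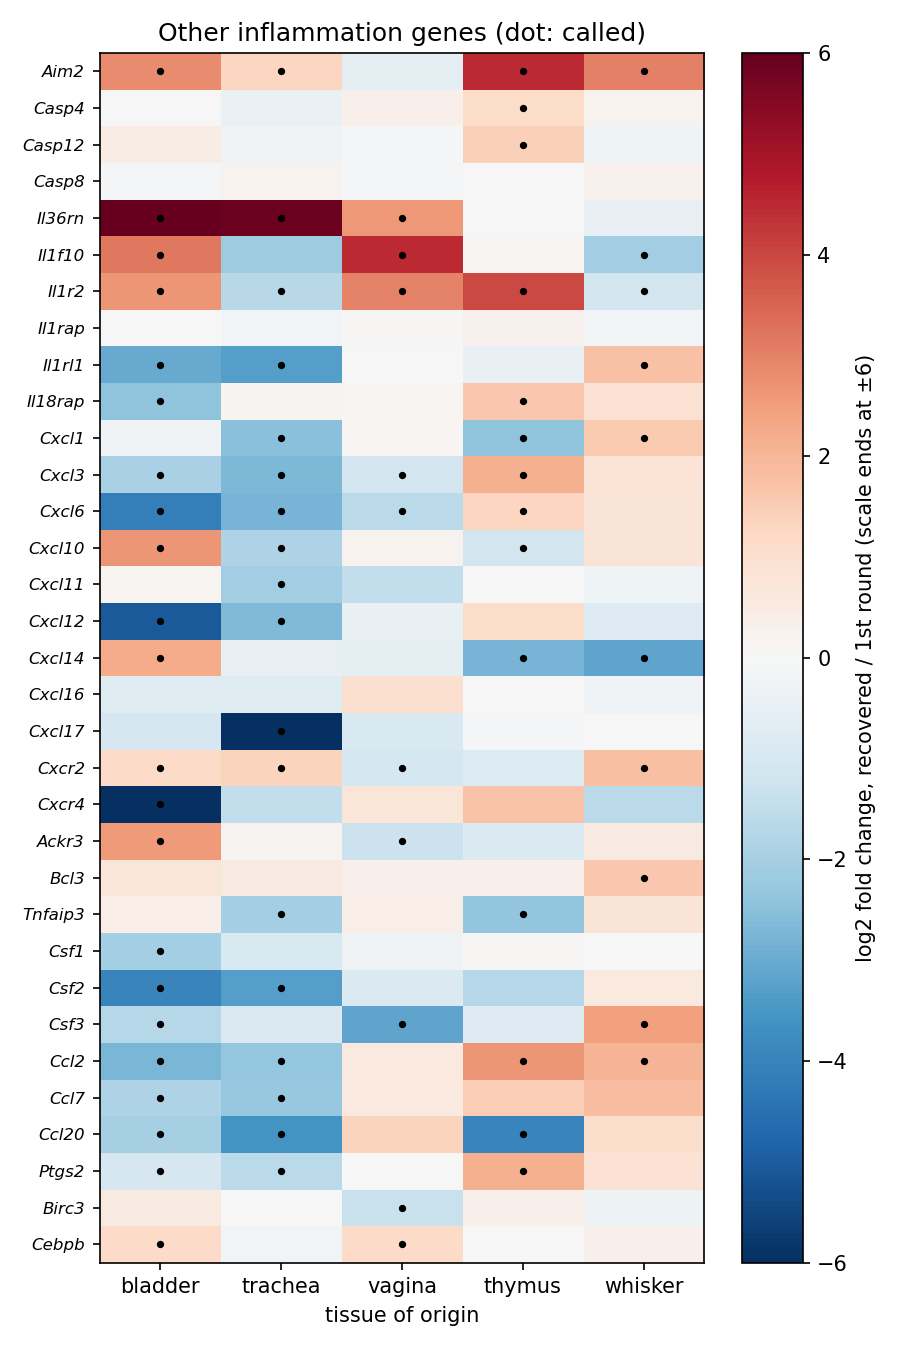
Fitted log2 fold change from the 1st round to recovered cells (colour, red higher and blue lower after transplantation, scale ending at 6 in each direction) for the 33 other inflammation genes tested in the 5 tissues; a dot marks a gene called by limma. Trachea has 15 genes called lower and 3 higher, whisker 3 lower and 7 higher. Of all tested genes, 8.04% were called lower and 4.39% higher in trachea, and 3.83% lower and 2.15% higher in whisker.

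Against whisker cells the 33 genes were read in either direction. In the 1st round 27 were called for bladder cells, 26 for tracheal, 18 for vaginal and 21 for thymic cells, against 16, 17, 12 and 11 in the 2nd. In the same order, 32.0%, 28.3%, 18.6% and 22.9% of all tested genes were called in the 1st round. In the 2nd the shares were 20.1%, 19.0%, 11.9% and 16.7%. The identifiers came from lists of such differences, which favoured calls in advance, so nothing is read from the counts or their fall. Cxcl1 was above whisker before transplantation in all 4 tissues, as Cxcl2 was, with log2 fold changes of 3.64 for bladder, 2.94 for tracheal, 1.07 for vaginal and 2.94 for thymic cells. After transplantation it was above recovered whisker in bladder (1.87) and below it in trachea (-1.13) and thymus (-1.06), whereas Cxcl2 differed from recovered whisker by 0.07 in trachea and 0.64 in thymus.

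Likeness of pattern was measured over 11105 genes as Pearson's r between the means of log2 CPM of the 10 groups, which share libraries and the 2 rounds, and is given as a description. Casp1 and Cxcl2 were not alike (r = -0.211). The 5 genes most like Casp1 (r between 0.918 and 0.931) carried no symbol here. Of the 5 most like Cxcl2, 3 had one, namely PVR, a cell adhesion molecule of the nectin-like family (r = 0.938), Areg, the epidermal growth factor receptor ligand amphiregulin (0.933), and Tnfaip3 (0.912). Areg also lies 4 genes from Cxcl2 in the RefSeq order, and it rose in whisker after transplantation (log2 fold change 1.70, SE 0.27, adjusted p = 0.00024 in limma). Among the listed genes r with Cxcl2 was 0.847 for Csf3, 0.709 for Cxcl6 and 0.569 for Cxcl3. With Casp1, r was 0.72 for Casp12, 0.681 for Aim2 and 0.482 for Casp4. For each of these values, many genes outside the lists had a higher r with the same member. No likeness particular to a pathway is therefore read from them.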

How the data were processed

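RNA-seq libraries (TruSeq Stranded mRNA, single reads) of 20 samples were analysed. The authors trimmed and filtered the reads (cutadapt 1.8), aligned them to Rnor_6.0 with STAR 2.5.2b, counted them per Ensembl gene with HTSeq 0.6.1 and deposited raw counts. Summary rows that name no gene (41.6% to 46.4% of a file) were left out, most of them reads with several alignments. CPM with TMM scaling, a filter of 1 CPM in 1 sample and limma 3.58.1 (voom), edgeR 4.0.16 and R 4.3.3 were then used, in 1 model with 10 group means and 10 residual degrees of freedom. Benjamini-Hochberg adjustment was made per comparison. A call needed an adjusted p below 0.05 and a fold of at least 2. The fit was tested on simulated data.

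The 2 genes and the gene lists were chosen with earlier results of these data known, and the 2 genes were not tested. Genes named were drawn from those of the inflammasome, interleukin-1 and CXC lists with an identifier, up to 5 called genes per direction and comparison with the largest absolute change from each of the NF-kappaB, mediator and other caspase lists, the 5 genes most like each member, and markers. The remaining listed symbols are not analysed here, and some results for listed genes are not reported. Symbols came from the identifier lists of the study's supplementary data, whose values were not used. Alternatives were edgeR's quasi-likelihood test, DESeq2 1.42.0 and its size factors, no filter and a stricter one (10 counts in 2 samples), a replicate block, fits of only the 4 samples compared, and leaving out each sample. The comparison of recovered cells with 1st round whisker cells was added after seeing the data. Replicates of a group differed beyond counting noise (mean chi-square per gene 2.48 to 42.9), so they were kept apart in the fits. The exact interval for thymic Casp1 used the summed counts of each group, and it leaves out this further variation. Intervals and the 3-count floor cover counting error only, and with 2 samples per group no single outlying sample can be tested.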

Additional observations from a re-analysis of the deposited data

Results flagged for a closer look

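In these results every sample of one tissue moved one way between rounds and every sample of another tissue the opposite way. The differences themselves were not tested, since both genes were chosen from these samples. The values are differences between fitted log2 fold changes.

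The change of Casp1 in bladder exceeded that in trachea by 3.92 and that in whisker by 3.34. The change in vagina exceeded that in trachea by 1.86 and that in whisker by 1.28. The change in thymus exceeded that in trachea by 9.84 and that in whisker by 9.26, values that rest on the 4 counts of Casp1 in 1st round thymic cells. The change of Cxcl2 in whisker exceeded that in trachea by 5.76, that in vagina by 3.64 and that in thymus by 3.96. The tracheal differences of Casp1 rest on 18, 17, 7 and 8 counts.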

How the results depend on the processing

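The counts of called inflammation genes stayed within 1.5 times the reported count in 143 of 143 alternatives. Of 374 alternative values of Casp1 and Cxcl2, 338 moved by less than the spread between samples and 36 moved by more. A reversal was counted only where the reported log2 fold change was at least 1 in size, and 0 were found. Smaller differences could change sign. Cxcl2 in recovered trachea against recovered whisker ranged from -0.03 to 0.16 when 1 sample was left out, and its bladder change is given below. For Casp1 in thymus the change after transplantation was 8.25 with edgeR and 8.34 with DESeq2, and the difference from 1st round whisker was -7.63 and -7.74. All of these values rest on the 4 Casp1 counts of the 1st round thymic samples. The limma values also depend on the prior count added to 0 reads. Leaving out 1 sample at a time gave log2 ranges. For Casp1 in thymus these were 7.18 to 10.30 for the change, and -9.70 to -6.59 against 1st round whisker, set by the 1st round thymic samples (10.30 and -9.70 without the sample of 4 counts, 7.18 and -6.59 without that of 0). For Cxcl2 the change ranged from -0.20 to 0.41 in bladder, where the sign depends on the 1st round bladder sample left out, from -0.70 to -0.20 in vagina, set by the recovered vaginal samples (-0.70 without the first, -0.20 without the second), and from 2.91 to 3.47 in whisker. Against 1st round whisker Cxcl2 ranged from 6.04 to 6.65 in bladder, 5.57 to 6.13 in trachea, 3.68 to 4.24 in vagina and 4.33 to 4.89 in thymus, and in recovered cells from 6.19 to 6.75, 2.98 to 3.54, 3.22 to 3.78 and 3.53 to 4.11. In vagina against recovered whisker it ranged from 0.0701 (without the first recovered vaginal sample) to 0.57 (without the second). The ends of the ranges against 1st round whisker came from leaving out whisker samples (45 and 27 Cxcl2 counts), except in 1st round bladder, where they came from the bladder samples. In recovered vagina, leaving out a vaginal sample gave 3.24 and 3.75. Where 1 sample of a group was left out, the other was assumed to vary like the remaining groups.

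Same-numbered samples did not deviate together (correlations from -0.123 to 0.240, median 0.019, over 45 pairs of groups), so the numbers do not pair them. With the replicate block the Casp1 change was 2.81 in bladder and 8.64 in thymus, the Cxcl2 change was -2.58 in trachea and 3.17 in whisker, and 22, 18, 10, 14 and 10 inflammation genes were called between rounds in bladder, trachea, vagina, thymus and whisker. Casp1 in trachea and in 1st round thymus is limited by depth.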
